A study of Homo sapiens with 4 samples.

Results

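The mRNA of 293T cells transfected with a miR-1 mimic was set against that of 293T cells transfected with a control RNA, gene by gene, and the genes, families and pathways that were lower or higher with miR-1 are described here. A gene was included if its FPKM (a read count scaled to gene length and to the size of the library) was at least 1 in either library. Of 58243 genes listed, 10129 met this rule, among them 6563 of 19708 protein-coding genes, which are the subject of the text. CPT1A, at 1.00034 FPKM in the control and 0.840 with miR-1, was the protein-coding gene just inside the rule, and STX7, at 0.999953 FPKM in the control and 0.881 with miR-1, the one just outside it.

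293T cells derive from human embryonic kidney and are easily transfected. A mimic is a short synthetic duplex in which 1 strand has the sequence of a mature miRNA. The question behind the samples was how strongly the predicted targets of a miRNA are repressed, and the cells were profiled by RNA-seq after transfection with a control RNA or with a mimic of 1 of 3 miRNAs, namely miR-1, miR-122 or miR-124. All 4 samples carry the label of 48 h after transfection, while the study's methods give a shorter time. There was 1 library per condition, so that no difference below has a replicate check and no p-value is given. The miR-122 and miR-124 libraries served to see whether a difference was also present after transfection with another mimic.

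miRNAs guide Argonaute proteins to mRNAs, mostly through pairing of the seed, the bases near the 5′ end of the miRNA, with the 3′ UTR, and the bound mRNA is then translated less and degraded sooner. miR-1 is made in heart and skeletal muscle, where it is among the most abundant miRNAs. Targets known from other cells include actin-binding proteins, enzymes of sugar and nucleotide metabolism and transcription factors of early development. 293T cells do not normally make it.

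Mature miR-1, from RefSeq (GRCh38.p14), is shown because every site below is defined by it, with the seed (bases 2 to 8) in capitals. It is encoded by 2 genes, by MIR1-2 at chr18:21829015-21829036 on the minus strand and by MIR1-1 at chr20:62554351-62554372 on the plus strand.
hsa-miR-1-3p: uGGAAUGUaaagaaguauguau
Both of these genes are listed at 0 in all 4 libraries, which does not bear on the mimic, since libraries made from mRNA do not capture an RNA of 22 bases. The sites searched for on the sense strand of each 3′ UTR were the 8mer ACATTCCA, the 7mer-m8 ACATTCC, the 7mer-A1 CATTCCA and the 6mer CATTCC. The words overlap, as the 8mer contains all of the others and both 7mers contain the 6mer, so that each gene was counted by its strongest site. Over the longest annotated 3′ UTR of 19246 genes, the 8mer was found in 5.12%, the 7mer-m8 word in 12.6%, the 7mer-A1 word in 15.6% and the 6mer word in 35.1%.

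The sites below lie in the 3′ UTRs of the genes that carry the results, and are taken from GENCODE release 44 transcripts (GRCh38), with the bases that match the words in capitals. A match is a description of the sequence and no measurement of binding.
TWF1, chr12:43793963-43793986, minus strand, 8mer: attaaagtaaatggACATTCCAga
NOTCH3, chr19:15159175-15159197, minus strand, 7mer-A1: gttaattgagtgttCATTCCAtt
TAGLN2, chr1:159918720-159918742, minus strand, 7mer-m8: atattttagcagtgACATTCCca
LASP1, chr17:38918793-38918816, plus strand, 8mer: catctgtcttcagcACATTCCAcg
LASP1, chr17:38919117-38919140, plus strand, 8mer: cctcacatacccacACATTCCAgg
CXCR4, chr2:136114595-136114618, minus strand, 8mer: gaaaagggaactgaACATTCCAga
ADAR, chr1:154582095-154582117, minus strand, 7mer-m8: tgacttaacaatatACATTCCtc
SRSF9, chr12:120461945-120461968, minus strand, 8mer: tgtgctcagaatctACATTCCAga
ANXA2, chr15:60347423-60347446, minus strand, 8mer: agccaaagaaatgaACATTCCAag

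The libraries held 6624306 reads for the control RNA and 9452232 for miR-1, with 5887055 and 6465436 for miR-122 and miR-124. The median protein-coding gene had 418 reads in the control library and 593.5 with miR-1. A ratio is the FPKM with miR-1 over that with the control RNA, and its 95% interval is an exact Clopper-Pearson interval from the recovered reads, which covers counting error only and compares the 2 libraries. For 20093 of 32010 genes the deposited FPKM divides by the length of the whole gene, introns included, and of the genes with another length and at least 200 reads 90.37% lie within 10% of it, so that the rule of 1 FPKM favours genes of short span, and levels are compared between libraries and not between genes. Markers of 293T cells were present (VIM, KRT8, KRT18, NEFL, NEFM, LIN28B, IGF2BP1 and ZIC2 summed to 226 FPKM in the control and 254 with miR-1, and to 255 and 238 with miR-122 and miR-124). Of 20 genes of heart and skeletal muscle, 2 (TNNT1 and MYOD1) were at 1 FPKM or more with the control RNA and the same number with miR-1. Summed FPKM of 7 hepatocyte markers was 0.102 and 0.557, that of 6 blood cell markers 0.873 and 0.289, and that of 6 fibroblast markers 4.61 and 4.45, in the control and miR-1 libraries in that order.

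Genes that were lower with miR-1 outnumbered those that were higher. Of the 6560 protein-coding genes above 0 in both libraries, 184 (2.8%) were at least 1.5-fold lower with miR-1 and 71 (1.08%) at least 1.5-fold higher, and 30 and 17 were past 2-fold. The centre of the distribution stayed near no change, with a median log2 ratio of 0.02 and quartiles of -0.17 and 0.17, and 47.6% of genes had a ratio below 1. The whole interval lay below 1 for 21.1% of genes and above 1 for 23.3%. For miR-122 and miR-124, 100 and 70 of the same genes were 1.5-fold lower than in the control library, and 82 and 157 were higher, all 3 comparisons sharing that control library.

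Of the 184 lower genes, 164 had a whole interval below 1, 39 had fewer than 100 reads in the 2 libraries together, and 84 met the FPKM rule through the control library alone, so that they had to be lower. Of the 71 higher genes, 57 had a whole interval above 1, 23 had fewer than 100 reads, and 29 met the rule through the miR-1 library alone. With at least 200 reads, 124 genes were lower and 33 higher. In the other mimic libraries, 32 of the 184 were 1.5-fold lower with miR-122 and 28 with miR-124, while 30 and 25 of the 71 were 1.5-fold higher. The genes that were lower had longer 3′ UTRs (a median of 1624 bases) than the genes that were higher (463.5), against 1191 bases for all genes. The 3 genes TAS2R19, FREY1 and H4C1 were at 0 in the control library and had 10, 12 and 4 reads with miR-1, and no fold is given for them.

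**Figure D1:**
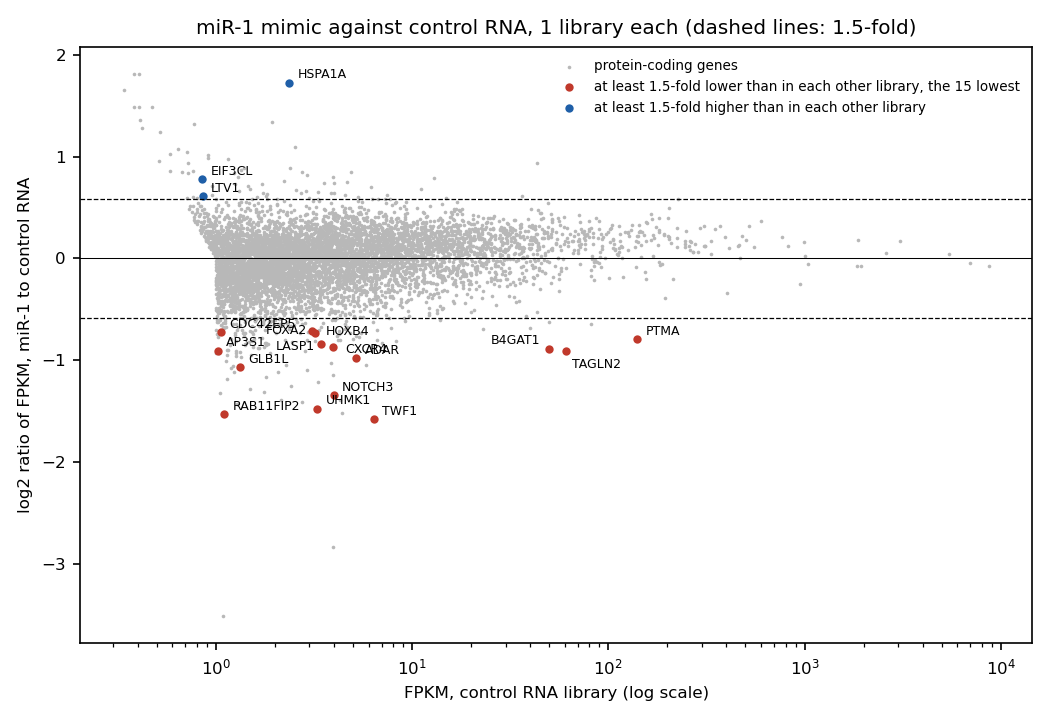
Each point is 1 of 6560 protein-coding genes, with FPKM in the control RNA library on the x axis (log scale) and the log2 ratio of FPKM, miR-1 to control RNA, on the y axis. The dashed lines mark 1.5-fold, the 15 genes in red are the named genes that were at least 1.5-fold lower with miR-1 than in each of the other 3 libraries, and the 3 in blue are those that were higher, with HSPA1A at a ratio of 3.31. That ratio is uncertain, as reads could have been assigned to the copy HSPA1B. The slanted edge at the left comes from the rule of at least 1 FPKM in either library.

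In all, 47 genes (0.716%) were at least 1.5-fold lower with miR-1 than in each of the other 3 libraries, and 6 genes (0.0915%) were at least 1.5-fold higher. Among the 47, 22 met the FPKM rule through the control library alone, so that they had to be lower than it. Among the 6, 3 met it through the miR-1 library alone and had to be higher than the control. Named below, RAB11FIP2, AP3S1, GLB1L, CDC42EP5, TMEM200C, FUCA1 and SLC25A30 are among those 22, and EIF3CL and LTV1 among those 3. Of the 47, 30 had at least 100 reads and were not among the reporter targets drawn in the study's figures. The 15 lowest of these, ranked by the ratio nearest to 1 among the 3, are given first. They fell into genes of the actin cytoskeleton, cell surface receptors, regulators of gene expression, and enzymes and trafficking proteins.

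TWF1, which encodes twinfilin-1, a protein that binds actin monomers and caps filament ends, had the lowest ratio of the 15. It was at 6.37 FPKM with the control RNA, 2.13 with miR-1, 5.28 with the miR-122 mimic and 4.39 with that of miR-124. The ratio to the control was 0.335 (interval 0.287 to 0.389), and the gene was also lower with miR-124 than with the control, at 0.689, though far above its level with miR-1. IRAK4, which overlaps TWF1 on the other strand, had 119 reads against the 534 of TWF1 in the control library.

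TAGLN2 encodes transgelin-2, which binds actin filaments. It was at 60.9 FPKM with the control RNA, 32.4 with miR-1, 69.2 with the miR-122 mimic and 66.0 with that of miR-124, a ratio of 0.533 (0.504 to 0.562) on 3074 and 2336 reads. LASP1, a LIM and SH3 protein of actin-rich adhesion sites, was at 3.45, 1.93, 3.59 and 3.49 FPKM in the same order of libraries, a ratio of 0.558 (0.512 to 0.609). For both genes the 3 libraries without miR-1 lay close together, while a low level with miR-1 alone was a condition of their choice. CDC42EP5, an effector of the GTPase CDC42, was at 1.06, 0.642, 1.40 and 1.26 FPKM, with few reads (58 and 50) and an interval of 0.405 to 0.897.

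Among receptors, NOTCH3, a Notch receptor best known from vascular smooth muscle, was the gene with the clearest separation. It was at 3.98 FPKM with the control RNA, 1.57 with miR-1, 3.87 with the miR-122 mimic and 4.31 with that of miR-124. The ratio was 0.395 (0.358 to 0.436) from 1107 and 624 reads, while the other mimics gave 0.971 and 1.08. CXCR4, the receptor of the chemokine CXCL12, was at 3.96, 2.16, 5.39 and 5.27 FPKM, a ratio of 0.547 (0.401 to 0.742) on 100 and 78 reads. Its level with miR-1 was the lowest of the 4, as the rule of choice required, and its levels with the other 2 mimics were above the control.

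Regulators of gene expression included ADAR, the enzyme that converts adenosine to inosine in double-stranded RNA, and PTMA, the small acidic nuclear protein prothymosin alpha. ADAR was at 5.21 FPKM with the control RNA, 2.64 with miR-1, 4.47 with the miR-122 mimic and 4.57 with that of miR-124, a ratio of 0.508 (0.470 to 0.548). PTMA was at 140.2, 81.1, 149.7 and 140.5 FPKM, a ratio of 0.579 (0.558 to 0.601) that rests on 6172 and 5097 reads and has the narrowest interval of the 15. UHMK1, a kinase of splicing factors and other proteins, was at 3.29, 1.18, 2.50 and 2.08 FPKM, a ratio of 0.360 (0.316 to 0.409), and was lower with the other mimics too, at 0.761 and 0.634 of the control. The developmental transcription factors HOXB4 and FOXA2 had fewer reads. HOXB4 was at 3.22, 1.93, 3.62 and 3.60 FPKM with 98 and 84 reads (ratio 0.601, 0.443 to 0.812), and FOXA2 at 3.09, 1.88, 3.55 and 3.34 FPKM with 91 and 79 reads (ratio 0.608, 0.444 to 0.832). Reads of HOXB4 and of HOXB3, which overlaps it on the same strand and had 212 reads in the control library, may have been split.

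The trafficking and sugar-related genes were RAB11FIP2, AP3S1, B4GAT1 and GLB1L. RAB11FIP2, an effector of RAB11 in recycling endosomes, was at 1.10, 0.381, 0.945 and 0.779 FPKM, a ratio of 0.346 (0.282 to 0.422). AP3S1, the small subunit of the AP-3 adaptor complex, was at 1.02, 0.546, 0.891 and 0.944 FPKM, a ratio of 0.534 (0.466 to 0.612). B4GAT1, a glycosyltransferase that acts on dystroglycan, was at 49.8, 26.95, 50.2 and 49.6 FPKM, a ratio of 0.541 (0.485 to 0.604). Its 3 levels without miR-1 differed by less than 1 FPKM, and its longest annotated 3′ UTR holds none of the 4 words. GLB1L, a relative of beta-galactosidase, was at 1.33, 0.632, 1.21 and 1.34 FPKM with 78 and 53 reads (ratio 0.476, 0.329 to 0.684).

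Another 15 genes that passed the same rule were SRSF9, LRP1, HOXD11, SOWAHC, ANXA2, LIN7C, PNP, POGK, H3-3B, TMEM200C, IRF2BPL, FUCA1, UNC119B, SLC25A30 and AP1S1. Their ratios to the control ranged from 0.474 (SLC25A30, a mitochondrial carrier) to 0.665 (AP1S1, a subunit of the AP-1 adaptor). H3-3B and LRP1 were singled out after their values were seen. H3-3B, which encodes the replication-independent histone H3.3, was at 82.1 FPKM with the control RNA, 52.6 with miR-1, 80.0 with the miR-122 mimic and 80.5 with that of miR-124. LRP1, a large endocytic receptor, was at 1.78, 1.09, 1.76 and 1.74 FPKM.

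Only 3 of the 6 higher genes had at least 100 reads, and near-identical gene copies limit 2 of those. HSPA1A, the inducible HSP70 chaperone, was at 2.37 FPKM with the control RNA, 7.84 with miR-1, 2.46 with the miR-122 mimic and 2.31 with that of miR-124, a ratio of 3.31 (2.33 to 4.8) from 39 and 184 reads. Its copy HSPA1B, which took nearly all of the reads of the pair, was at 181.8, 239.3, 152.1 and 187.1 FPKM, and the ratio of both together was 1.34 (1.28 to 1.40). EIF3CL, a copy of the initiation factor gene EIF3C, was at 0.851, 1.46, 0.853 and 0.834 FPKM, with a ratio of 1.72 (1.40 to 2.11). EIF3C was at a ratio of 1.55, and the ratio of both together was 1.62 (1.42 to 1.86). For these 2 pairs, reads could have been assigned to either copy, so that the values of the single genes are uncertain. LTV1, a factor in the assembly of the small ribosomal subunit, was at 0.856, 1.31, 0.838 and 0.824 FPKM, a ratio of 1.53 (1.22 to 1.92).

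Genes with a miR-1 site in the 3′ UTR were lower with miR-1 than genes without one, and in the order of the strength of the site. The median log2 ratio was -0.18 for 282 genes with an 8mer, -0.14 for 489 with a 7mer-m8, -0.10 for 570 with a 7mer-A1, -0.04 for 910 with a 6mer and 0.06 for 4289 with none, against 0.02 over all genes. The share of genes at least 1.5-fold lower was 9.93%, 9.0%, 2.98%, 2.64% and 1.63% in the same order, against 2.8% of all genes. Of the 8mer genes, 75.5% had a ratio below 1, against 39.6% of the genes with no site and 47.6% of all.

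Genes with these sites were also somewhat lower after transfection with the other mimics. The 8mer genes had medians of -0.07 with miR-122 and -0.09 with miR-124, and the genes with no miR-1 site medians of 0.05 and 0.06. The difference between 8mer genes and genes with no site was -0.24 against the control library and -0.10 against the mean of the other 2 mimics, and for the 7mer-m8 it was -0.21 and -0.09. The difference was thus smaller with the other mimics as the reference. At the low end, 2.48% of the 8mer genes were 1.5-fold lower with miR-122 and 0.709% with miR-124, beside 9.93% with miR-1. As a comparison in the other direction, 199 genes with an 8mer of miR-122 had a median of -0.11 with miR-122 and -0.04 with miR-1.

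The 8mer genes differ from the rest in more than the site. Their median 3′ UTR was 2850 bases long, against 798 for genes with no site, and the median log2 ratio of all genes went from 0.13 in the lowest to -0.11 in the highest of 4 equal groups by 3′ UTR length. Within each of the 4 groups by 3′ UTR length, by 3′ UTR GC content and by reads, the 8mer genes were lower than the genes with no site, by -0.15 to -0.38 on the log2 scale. With a smooth trend of the ratio with 3′ UTR length and GC content, gene span and reads subtracted, the difference was -0.14 for the 8mer, -0.11 for the 7mer-m8, -0.05 for the 7mer-A1 and -0.02 for the 6mer.

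Genes were also grouped by their number of seed matches. A seed match is a 7mer-m8 word, alone or as a part of an 8mer. Genes with none had a median log2 ratio of 0.03 (n = 5769), genes with 1 of -0.15 (n = 681), genes with 2 of -0.15 (n = 74) and genes with 3 or more of -0.39 (n = 16), and the shares at least 1.5-fold lower were 1.92%, 8.52%, 13.5% and 25%. The medians for 1 and 2 matches were thus alike. Median 3′ UTR length was 1057, 2655, 4320.5 and 4608.5 bases in the same order. The 16 genes had medians of -0.06 with miR-122 and -0.07 with miR-124. From the lowest ratio, they included LASP1 (0.558), PHAX (0.631), ZMAT3 (0.640), HACD3 (0.673), ZNF24 (0.721), FSTL1 (0.744), ZNF639 (0.762), PDE12 (0.763), MED28 (0.767), GNAI3 (0.805), CYBC1 (0.997), KHNYN (1.07), NRDE2 (1.07) and DCUN1D5 (1.25). PHAX exports snRNAs from the nucleus, ZMAT3 is an RNA-binding p53 target, and MED28, a Mediator subunit, holds 4 matches. The last of them, DCUN1D5, was higher with miR-1 (3.55 FPKM against 2.84) and holds 3 matches.

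The surroundings of a single seed match were read for the 681 genes with 1. With the control library as the reference, the median log2 ratio went from -0.07 in the first of 4 groups, with the fewest A and U within 30 bases of the match, to -0.23 in the last, with the most, and the share 1.5-fold lower from 4.09% to 15.2%. The same groups went from 0.03 to -0.14 with miR-122 and from 0.11 to -0.24 with miR-124, and against the mean of these 2 mimics the miR-1 medians ran the other way, from -0.17 to -0.05. The distance from the match to the nearer end of the 3′ UTR gave medians of -0.15 to -0.16 in all 4 groups against the control. With the averaged other mimics as the reference, it was -0.15 in the group nearest to an end (at most 204 bases) and -0.03 in the farthest (1074 bases or more), and 11.7% and 4.71% of these genes were 1.5-fold lower than in the control.

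Of the genes at least 1.5-fold lower with miR-1, 89 of 184 (48.4%) had an 8mer or a 7mer, against 20.4% of all genes and 3 of the 71 higher genes (4.23%). Among those with at least 100 reads the share was 57.9% of 145, and among the 47 genes lower than in each other library 57.4%. None of the 6 genes higher than in each other library had one. Coding sequences held matches as well. For 265 genes with no 3′ UTR site and a seed match in the coding sequence the median log2 ratio was -0.06. It was 0.07 for 4002 genes with no 3′ UTR site and no seed match in the coding sequence or 5′ UTR. Against the mean of the other mimics the medians were -0.08 and 0.01. Coding sequence length was not taken into account.

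Genes known as miR-1 targets from other work were the group that stood lowest. The list of 55 genes was drawn up from general knowledge with earlier results of these data known, without the reporter targets drawn in the study's figures, and 37 of them met the FPKM rule. Of these, 32 had a ratio below 1, 30 a whole interval below 1 and 1 a whole interval above 1, and 16 were at least 1.5-fold lower (43.2%, against 2.8% of all genes), 10 of them also against both other mimics. None was 1.5-fold higher. Of all genes, 47.6% had a ratio below 1, 21.1% a whole interval below 1 and 23.3% a whole interval above 1. The median log2 ratio was -0.52, while the same 37 genes had medians of -0.04 with miR-122 and -0.07 with miR-124. An 8mer or 7mer was found in 35 of the 37, so that the list and the site classes overlap.

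Next to TWF1, NOTCH3, TAGLN2, LASP1 and PTMA, described above, the 16 held an enzyme of purine metabolism. PNP, which breaks down purine nucleosides, was at 9.22 FPKM with the control RNA, 6.0 with miR-1, 9.18 with the miR-122 mimic and 9.23 with that of miR-124, a ratio of 0.651 (0.595 to 0.713). Its 3 levels without miR-1 lay close together. PNP was named above as lower than in each other library, so that they had to lie above the level with miR-1.

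SRSF9, an SR protein of splicing, had the most reads of the 16 (8636 in the control library). It was at 40.1 FPKM with the control RNA, 25 with miR-1, 45.5 with the miR-122 mimic and 43.3 with that of miR-124, a ratio of 0.624 (0.605 to 0.643). ANXA2, annexin A2, which links membranes to actin, was at 6.34, 4.11, 6.70 and 6.62 FPKM, a ratio of 0.649 (0.612 to 0.688). Both were named above as lower with miR-1 than in each other library. SERP1, a protein of the ER translocation site, was at 0.637 of the control, and ARCN1, the delta subunit of the COPI coat, at 0.659.

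Not all of the 16 were lower than the control with miR-1 alone. SOX9, a transcription factor of cartilage and testis development, was at 3.94 FPKM with the control RNA, 1.78 with miR-1, 2.39 with the miR-122 mimic and 2.41 with that of miR-124. GJA1, which encodes the gap junction protein connexin 43, was at 2.85, 1.52, 1.67 and 2.41 FPKM. POGK, a nuclear protein with a transposase-derived domain, was at 5.82, 2.82, 4.67 and 4.30 FPKM. For these 3 genes the control library was the highest and the miR-1 library the lowest, and the other mimics lay between. Of the 3, only POGK was at least 1.5-fold lower with miR-1 than in each other library. IRX5, a homeobox factor of heart development, was at 2.29, 1.11, 2.20 and 2.82 FPKM on 55 and 38 reads, with no site in its annotated 3′ UTR. MMD, a membrane protein of macrophages, was at 1.26, 0.760, 1.16 and 1.04 FPKM. MMD met the FPKM rule through the control library alone, so that it had to be lower. At the other end of the list, TRAPPC3 (ratio 1.11) and the chaperone HSPA4 (1.08) were not lower with miR-1.

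Of 70 listed genes of actin filament proteins, 52 met the FPKM rule. Their median log2 ratio was -0.09 with miR-1, 0.08 with the miR-122 mimic and 0.03 with that of miR-124, and 34 of 52 (65.4%) had a ratio below 1, against 47.6% of all genes. In this family, 4 were at least 1.5-fold lower (7.69%, against 2.8%), and 2 were higher (3.85%, against 1.08%). The lower ones were TWF1, TAGLN2, LASP1 and CAP1, a cyclase-associated protein that recycles actin monomers, at a ratio of 0.603. The higher ones were TPM4, a tropomyosin, at 4.54 FPKM with the control RNA, 6.98 with miR-1, 8.46 with the miR-122 mimic and 4.74 with that of miR-124, and ARPC4, a subunit of the ARP2/3 complex, at 2.71, 4.22, 3.58 and 3.30 FPKM. TPM4, whose longest annotated 3′ UTR holds a miR-1 8mer, was thus highest with miR-122, and the family held members on both sides of 1.

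In each list of membrane traffic 1 or 2 genes were at least 1.5-fold lower, and the list medians ran from -0.05 to 0.13. Whole intervals lay below 1 for 7 coat genes, 8 adaptor genes, 5 V-ATPase subunits and 8 genes of ER translocation and glycosylation. They lay above 1 for 8, 10, 5 and 10 genes in the same order. Over all genes these shares were 21.1% and 23.3%, and 47.6% had a ratio below 1. Among 28 genes of the COPI and COPII coats, 2 were 1.5-fold lower (7.14%, against 2.8% of all genes), SEC23B, a COPII coat subunit, at 2.31, 1.49, 2.16 and 1.98 FPKM, and ARCN1, and the median log2 ratio was -0.05. Of 26 clathrin and adaptor genes, AP3S1 and AP1S1 were lower (7.69%, against 2.8%), 2 other genes of the list were 1.5-fold lower with miR-124, and the median was 0.13, with 16 of 26 above 1. Of 17 V-ATPase subunits, 5 had a ratio below 1 and the median was 0.08. ATP6V0A1 was at 1.56 FPKM with the control RNA, 1.06 with miR-1, 1.38 with the miR-122 mimic and 1.54 with that of miR-124, whereas ATP6V1F was at 40.2, 56.2, 47.7 and 54.7 FPKM. A reporter target, ATP6V1A, was the only subunit past 1.5-fold (5.88%, against 2.8%). Of 34 genes of ER translocation and glycosylation, SERP1 was 1.5-fold lower (2.94%, against 2.8%) and SRP19, a subunit of the signal recognition particle, higher (2.94%, against 1.08%), at 0.916, 1.82, 1.25 and 1.43 FPKM, and the median was 0.02. The longest annotated 3′ UTR of SRP19 holds an 8mer. SRP19 and TPM4 were the 2 of 282 8mer genes that were at least 1.5-fold higher. SRP19 met the FPKM rule through the miR-1 library alone, so that it had to be higher than the control.

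The pentose phosphate pathway branches off glycolysis and makes NADPH and ribose. Of its 8 genes, 5 had a ratio below 1 (62.5%, against 47.6% of all genes). Their median log2 ratio was -0.05 against the control and -0.28 against the mean of the other mimics. PGD, which makes NADPH, was at 6.05 FPKM with the control RNA, 4.58 with miR-1, 6.09 with the miR-122 mimic and 5.81 with that of miR-124 (ratio 0.758, 0.690 to 0.832). RPIA, of the non-oxidative branch, was at a ratio of 1.19. For 19 genes of glycolysis the median was 0.17 with miR-1, 0.04 with the miR-122 mimic and 0.12 with that of miR-124, none was past 1.5-fold, and the highest, PFKL, was high with all 3 mimics (ratios 1.39, 1.38 and 1.43).

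Among 37 SR proteins and hnRNPs, 28 had a ratio below 1 (75.7%, against 47.6%), 20 had a whole interval below 1 (21.1% of all genes did) and 1, SRSF9, was 1.5-fold lower (2.7%, against 2.8%). The median log2 ratio was -0.09, and -0.03 against the mean of the other mimics. PTBP1, a repressor of neuronal exons, followed at 38.1 FPKM with the control RNA, 25.8 with miR-1, 38.2 with the miR-122 mimic and 40.2 with that of miR-124, a ratio of 0.677 (0.647 to 0.709) with a 7mer-m8 in its 3′ UTR. Of 18 histone lysine methyltransferases and demethylases, 15 were below 1 (83.3%, against 47.6%). Their median was -0.16 with miR-1, -0.11 with the miR-122 mimic and -0.09 with that of miR-124. KMT2A, the lowest, was at 1.11, 0.726, 0.743 and 0.822 FPKM, low with all 3 mimics. It met the FPKM rule through the control library alone, so that it had to be lower with miR-1.

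In the other direction, several large gene families had medians above 0 with miR-1, with a small difference in the same direction for most members. Of 77 cytosolic ribosomal protein genes, 76 had a ratio above 1 and 67 a whole interval above 1 (23.3% of all genes did), with medians of 0.19 with miR-1 and 0.03 with each of the other mimics. None was past 1.5-fold. RPS27 was the highest, at 225.6 FPKM with the control RNA, 337.1 with miR-1, 235.4 with the miR-122 mimic and 237.4 with that of miR-124 (ratio 1.49, 1.42 to 1.57). RPL36A was the 1 gene below 1 (1.3%, against 47.6% of all genes), on 45 and 50 reads. Ribosomal protein genes have many pseudogenes that can take their reads, so that single values are uncertain.

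The proteasome degrades ubiquitinated proteins. Of 35 subunit and assembly genes, 33 had a ratio above 1 and 29 a whole interval above 1, with a median of 0.24 with miR-1, 0.08 with the miR-122 mimic and 0.03 with that of miR-124, and none was past 1.5-fold. POMP, which helps to assemble the proteasome, was at 6.91 FPKM with the control RNA, 9.45 with miR-1, 6.66 with the miR-122 mimic and 7.34 with that of miR-124, and PSMD4, a ubiquitin receptor, at 15.6, 20.6, 17.7 and 16.7 FPKM. PSMD10 (ratio 0.918) and PSME3 (0.952) were the 2 below 1 (5.71%, against 47.6% of all genes). Of all genes, 23.3% had a whole interval above 1.

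Genes of mitochondrial function that are encoded in the nucleus went the same way. For 72 genes of oxidative phosphorylation the median was 0.23 with miR-1, 0.07 with the miR-122 mimic and 0.05 with that of miR-124, and 54 had a whole interval above 1. ATP5MC1, a subunit of the ATP synthase ring, was at 49.2 FPKM with the control RNA, 71.7 with miR-1, 52.1 with the miR-122 mimic and 51.9 with that of miR-124. For 67 mitochondrial ribosomal protein genes the medians were 0.20, 0.09 and 0.05, with 39 whole intervals above 1, and MRPL12 was 1.5-fold higher (1.49% of the list, against 1.08%) at 6.19, 10.05, 8.56 and 6.715 FPKM. The 13 mRNAs encoded by mitochondrial DNA had a median of -0.06 with miR-1, with 7 whole intervals below 1 and 4 above 1. Of all genes, 21.1% had a whole interval below 1 and 23.3% above 1.

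Chaperones had medians above 0 with miR-1 and below 0 with the other mimics. All 14 genes of the CCT chaperonin and its partner prefoldin had a ratio above 1, and 11 a whole interval above 1, with medians of 0.19 with miR-1, -0.06 with the miR-122 mimic and -0.07 with that of miR-124. PFDN2 was at 5.67 FPKM with the control RNA, 7.94 with miR-1, 4.74 with the miR-122 mimic and 5.46 with that of miR-124, and PFDN4 at 3.14, 4.27, 2.76 and 2.67 FPKM. For both genes the miR-1 library was the highest and both other mimics were below the control. Of 28 heat shock chaperones, 24 were above 1 and 17 had a whole interval above 1, with medians of 0.17, -0.02 and -0.08, and HSPA1A was the 1 past 1.5-fold (3.57% of the list, against 1.08%). That call is uncertain, as HSPA1A together with its copy HSPA1B was at a ratio of 1.34. HSPB1, the small heat shock protein HSP27, was high with all 3 mimics, at 204.7, 289.3, 253.6 and 264.9 FPKM. Of all genes, 23.3% had a whole interval above 1 and 47.6% a ratio below 1.

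Most of these families have short 3′ UTRs, with medians of 384 bases for the proteasome, 449 for oxidative phosphorylation, 578 for cytosolic and 595 for mitochondrial ribosomal proteins and 577 for CCT and prefoldin, while the heat shock chaperones, at 967, were nearer to the 1191 of all genes. After the trend with 3′ UTR length and GC content, span and reads was subtracted, the medians minus that of all genes were 0.10, 0.15, 0.07, 0.13, 0.07 and 0.11 in the same order, from 0.22, 0.21, 0.18, 0.19, 0.17 and 0.16 before. The part of 3′ UTR length in these differences was not tested beyond that.

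Genes of the cell cycle gave no common direction. Of 50 mitosis genes, 28 had a ratio below 1 (56%, against 47.6% of all genes). Their median was -0.03 with miR-1, -0.10 with the miR-122 mimic and -0.19 with that of miR-124. The 1 gene past 1.5-fold (2% of the list, against 2.8%, while 1 other gene of the list was lower with miR-122) was AURKA, the kinase Aurora A, at 5.39 FPKM with the control RNA, 3.15 with miR-1, 4.60 with the miR-122 mimic and 4.78 with that of miR-124 (ratio 0.585, 0.527 to 0.648), with a 7mer-m8 in its 3′ UTR. PTTG1, the securin that holds back separase, was at 16.4, 22.6, 18.6 and 16.1 FPKM. For 35 genes of DNA replication the median was 0.03 and none was past 1.5-fold. Of 25 genes of cell cycle and growth receptor signalling, CCND1, cyclin D1, was at 12.2, 8.38, 9.82 and 10.3 FPKM (ratio 0.689, 0.633 to 0.751), and CCNE1, cyclin E1, was 1.5-fold higher (4% of the list, against 1.08%), at 1.31, 2.07, 1.01 and 1.5 FPKM (ratio 1.58, 1.25 to 2.0).

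Genes of the response to interferon and double-stranded RNA, the innate defence against viral RNA, were not higher as a group. Of 44 listed, 17 met the FPKM rule, and 12 of those had a ratio below 1 (70.6%, against 47.6% of all genes). The medians were -0.05 with miR-1, 0.09 with the miR-122 mimic and -0.00345 with that of miR-124. ADAR and OAS3, a sensor of double-stranded RNA, were the lowest, and OAS3 was at 2.11 FPKM with the control RNA, 1.41 with miR-1, 1.57 with the miR-122 mimic and 1.83 with that of miR-124. IFI6, the highest, was at 4.36, 5.31, 5.66 and 5.25 FPKM, above the control with all 3 mimics.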

How the data were processed

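The authors deposited FPKM values per gene for 4 libraries of 293T cells, 1 for each of the control RNA and the miR-1, miR-122 and miR-124 mimics. The submitters' processing notes name CASAVA 1.8, HISAT2 2.0.0 and the genome GRCh38. The counting program, its annotation and its strand setting are not given in the sources used here, so overlapping genes may share reads. Of 58243 gene IDs, 57532 matched GENCODE release 44. Whole reads were recovered from the FPKM steps for 99.46% of 32010 genes (tolerance 0.01 reads), with library sizes of 5887055 to 9452232 reads.

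Ratios were taken without a pseudocount, and 1.5-fold was used as a call because 1 library per condition allows no test. No count model was run for the same reason. Intervals are exact Clopper-Pearson at 95%. Each gene was classed by its strongest site in its longest annotated 3′ UTR. The named genes were at most 15 lowest and 12 highest genes with at least 100 reads and 1.5-fold against each other library, up to 4 extremes of each gene list, and the known targets past 1.5-fold. The members and lists were chosen with earlier results of these data known. Alternatives covered the pseudocount, the scaling, the filters, the fold, the reference, the 3′ UTR chosen and an adjustment for 3′ UTR length, GC content, span and reads. Scripts used Python 3.11.15, numpy 2.4.6, pandas 2.3.3, scipy 1.17.1 and matplotlib 3.10.9, and were tested on simulated data. A few genes are not reported here.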

Additional observations from a re-analysis of the deposited data

How the results depend on the processing

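No paired analysis was possible because the groups hold 1 library each, and for the same reason no library could be left out. The counts of 184 lower, 71 higher, 47 lower than in each and 6 higher than in each other library depended on the filter and the fold. They were 30, 17, 6 and 1 past 2-fold, 100, 42, 25 and 3 with at least 1 FPKM in both libraries, 24, 20, 14 and 1 with at least 5 FPKM in either, and 1340, 674, 314 and 162 with no filter beyond 0.004 FPKM in both. With at least 200 reads the last 3 were 33, 25 and 3, and with a pseudocount of 1 the first 3 were 44, 27 and 12. Against the mean of the miR-122 and miR-124 libraries, 30 genes were higher. After the adjustment for 3′ UTR length, GC content, span and reads, 127 genes were lower and 84 higher.

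The differences between genes with and without a site, -0.24 (8mer), -0.21 (7mer-m8), -0.16 (7mer-A1) and -0.10 (6mer), kept their direction. In this order they were -0.17, -0.14, -0.12 and -0.072 with a pseudocount of 1, -0.10, -0.087, -0.031 and -0.022 against the mean of the other mimics, and -0.14, -0.11, -0.054 and -0.018 after the adjustment. With at least 5 FPKM the 7mer-A1 gave -0.20 and the 6mer -0.077.

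Of 201 list medians under alternatives, given minus that of all genes, 180 stayed within the 95% interval of the median. The sign differed from the main one in 26, over 19 lists, and in 1 of these the interval had left out 0, that of the nucleoporins, at 0.12 against the mean of the other mimics from -0.09. The proteasome had the highest median at first, and another list was higher, in part by very little, under each alternative run on the lists. Against the same reference, known miR-1 targets were at -0.41, nuclear transport receptors at 0.12, heat shock chaperones at 0.21, mitosis at 0.11, SR proteins and hnRNPs at -0.013 and ubiquitin-conjugating enzymes at 0.093. With a pseudocount of 1, known miR-1 targets were at -0.39. With at least 5 FPKM, cholesterol synthesis was at -0.17, the proteasome at 0.10, SR proteins and hnRNPs at -0.21, aminoacyl-tRNA synthetases at -0.036, cell cycle and growth receptor signalling at -0.17, cytosolic ribosomal proteins at 0.094, mitochondrial ribosomal proteins at 0.15, oxidative phosphorylation at 0.12 and kinesins at -0.18. After the adjustment, the proteasome was at 0.10, cytosolic ribosomal proteins at 0.071, mitochondrial ribosomal proteins at 0.13 and oxidative phosphorylation at 0.15. The causes of these shifts were not tested.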

Other observations

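Further gene groups held single genes past 1.5-fold and medians near that of all genes. Of 99 solute carriers, 5 were lower (5.05%, against 2.8% of all genes), among them SLC25A30 at a ratio of 0.474 and SLC35B4 at 0.526. SLC26A6 was higher at 1.56 (1.01% of the list, against 1.08% of all genes), and the median log2 ratio of the list was -0.02. Of 57 zinc finger genes on chromosome 19, ZNF507 (0.582) and ZNF302 (0.643) were lower (3.51%, against 2.8%). Of 26 RAB GTPases, RAB2B (0.597) was lower (3.85%, against 2.8%), and the medians of these groups were -0.03 and -0.01. ZNF507 was also lower with the other mimics, at 0.657 of the control with miR-122 and 0.660 with miR-124. Of 25 nuclear transport receptors, 2 were lower (8%, against 2.8%), a reporter target and IPO8 (0.629), an importin. Of 25 nucleoporins NUP50 (0.666) was lower (4%, against 2.8%), and the medians of that group were -0.08 with miR-1, -0.13 with the miR-122 mimic and -0.23 with that of miR-124. Of 25 genes of nucleotide synthesis and salvage, PNP was lower (4%, against 2.8%), and of 6 annexins ANXA2 (16.7%, against 2.8%). Of 24 p53 targets ZMAT3 was lower (4.17%, against 2.8%), and of 31 immediate early genes DUSP4 (0.663), a phosphatase of MAP kinases (3.23%, against 2.8%). DUSP4 was lower still with miR-122, at 0.528 of the control, and was at 0.867 with miR-124. Of 41 translation initiation factors, EIF3CL was higher (2.44%, against 1.08%), and the median was 0.09. The value of EIF3CL is uncertain, as reads could have been assigned to its copy EIF3C. SLC25A30, SLC35B4, ZNF507, RAB2B, IPO8, ZMAT3 and DUSP4 met the FPKM rule through the control library alone, so that they had to be lower. EIF3CL met it through the miR-1 library alone and had to be higher.

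No gene was past 1.5-fold among 32 lysosomal genes, 7 14-3-3 proteins, 23 genes of cholesterol synthesis, 30 of the unfolded protein response, 28 aminoacyl-tRNA synthetases, 21 of RISC and mRNA decay, 12 kinesins and 21 ubiquitin-conjugating enzymes. Their medians were 0.00, 0.03, -0.10, 0.07, 0.03, -0.10, -0.07 and 0.03. Of 24 replication-dependent histone genes, 7 were lower and 4 higher (29.2% and 16.7%, against 2.8% and 1.08% of all genes), while 8 and 5 were lower with miR-122 and miR-124 (33.3% and 20.8%, against 1.52% and 1.07%). H2BC17, with 10 reads in the control library and 2 with miR-1, shows how few reads stand behind some of these. It met the FPKM rule through the control library alone, so that it had to be lower. Among the mitochondrially encoded mRNAs, MT-ATP8 was 1.5-fold lower (7.69%, against 2.8%) on 6 and 3 reads.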
